A study of Mus musculus with 12 samples.

Results

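The circadian clock genes examined here were the 10 period, cryptochrome, REV-ERB and clock output genes *Per1*, *Per2*, *Per3*, *Cry1*, *Cry2*, *Nr1d1*, *Nr1d2*, *Dbp*, *Nfil3* and *Bhlhe40*. They were chosen by symbol from the 56980 genes of the count matrix, through their Ensembl identifiers. Each of the 10 was found, and all 10 had enough counts to be tested. The cells were the mouse bone marrow stromal line W-20-17, called W-20 in the study, as unmodified cells (WT) and as a line named Y428F, after a change of tyrosine to phenylalanine in the transcriptional coactivator YAP. Each line received parathyroid hormone (PTH) at 50 nM, or a matching volume of PBS as vehicle, for 2 hours, and poly(A) RNA of 3 libraries per group was sequenced. The study asked how PTH acts on the transcriptome of these cells and how that response differs when this tyrosine of YAP is mutated. Y428F cells were made by introducing a Flag-tagged YAP construct driven by a CMV promoter, followed by puromycin selection of clones, and the genotype label of their libraries reads WT, so their group was taken from the titles. No library of cells carrying unmutated exogenous YAP was analysed here, so the mutation cannot be told apart from other differences between the lines. The study describes both a line with the tyrosine change alone and a line that also carries a serine to alanine change at a LATS1 phosphorylation site, which is known to promote degradation of YAP when phosphorylated. Its account of the RNA-Seq names the doubly mutated line and, in places, the tyrosine change alone. The library titles give Y428F only. Every difference between Y428F and WT cells below may therefore include the effect of the serine change. That effect cannot be told apart from the effect of the tyrosine change. The labels do not say whether the 3 libraries of a group came from separate cultures, and p-values therefore measure the spread between these libraries, which may be technical.

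In the mammalian clock, CLOCK and BMAL1 bind E-box elements and drive transcription of the period and cryptochrome genes, whose protein products then repress CLOCK and BMAL1. A second loop is formed by the REV-ERB repressors, encoded by *Nr1d1* and *Nr1d2*, which compete with ROR activators for the same response elements in genes such as *Bmal1*. DBP and NFIL3 act on D-box elements as activator and repressor, and BHLHE40 represses at E-boxes. In bone-forming cells, *Per1* is known as a gene induced early through cAMP, one of the messengers of the PTH receptor. Each group was sampled once, and the clock time of collection is not given in the sources used here, so phase and rhythm were not measured.

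The promoters of the clock genes were read from the GRCm39 genome to show which of these elements they hold, over 250 bases before and 50 bases from the start of the Ensembl canonical transcript in GENCODE vM39. The E-box CACGTG was found in 3 of 10 clock genes and in 7.81% of 21770 promoters. The D-box TTANGTAA was found in 2 of 10 and in 2.3% of promoters, and the ROR and REV-ERB response element core AGGTCA in 2 of 10 and in 15.1%. Both strands were searched. The lines below run 5′ to 3′ on the strand of the gene, with the matched letters in capitals and the position of the first matched base relative to the start given in the text that follows them.
*Per1* E-box: ccccttaacgaCACGTGggccctcaatt
*Cry1* E-box: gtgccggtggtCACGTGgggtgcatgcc
*Bhlhe40* E-box: cgcgtccgggcCACGTGaagcgtcacgc
*Per2* D-box: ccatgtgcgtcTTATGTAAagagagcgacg
*Per3* D-box, distal: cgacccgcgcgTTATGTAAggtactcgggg
*Per3* D-box, proximal: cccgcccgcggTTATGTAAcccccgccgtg
*Dbp* core AGGTCA: tggccaaatatAGGTCAgtgtcccgcct
*Nr1d2* core AGGTCA: attggaagaagAGGTCAggaccgctcgt

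The *Per1* stretch lay at chr11:68989235-68989262 on the plus strand, with its E-box at -22. The *Cry1* stretch lay at chr10:85020962-85020989 on the minus strand, with its E-box at -29. The *Bhlhe40* stretch lay at chr6:108636393-108636420 on the plus strand, with its E-box at -222. The *Per2* D-box, at chr1:91387153-91387182 on the minus strand, began at -125. *Per3* held a pair of D-boxes, at chr4:151129309-151129338 and chr4:151129262-151129291 on the minus strand, beginning at -187 and -140. The AGGTCA letters of *Dbp*, at chr7:45354313-45354340, and *Nr1d2*, at chr14:4230502-4230529, were on the plus strand and began at -188 and -32. The full cAMP response element TGACGTCA was found in 0 of 10 windows and in 2.44% of all promoters, whereas its shorter core TGACG, which overlaps the full element, was found in *Bhlhe40*, *Cry1* and *Cry2* and in 22.6% of all promoters. The TEAD letters GGAATG, for the factors that YAP binds, were found in *Nr1d2* alone of the 10 and in 14% of all promoters. These windows are not all free of transcribed sequence. All 250 bases before the start lay in annotated exons for *Cry1*, in exons of *Cry1* itself, and for *Bhlhe40* and *Nfil3*, in exons of another gene, as did 230 of the 250 for *Nr1d1*, counting any gene. The *Cry1* and *Bhlhe40* E-boxes shown are therefore in exonic sequence, while the 250 bases before the start held 0 exon bases for *Per1* and *Nr1d2*. Those of *Per1* still lie within its annotated gene, which begins upstream at chr11:68986035. A match describes these letters in this window and does not identify a bound site.

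The clock genes lie on several chromosomes in GRCm39, with *Per1* (ENSMUSG00000020893.18) at chr11:68986035-69002300 and *Nr1d1* (ENSMUSG00000020889.12) at chr11:98658752-98666188 on the same one. *Per2* (ENSMUSG00000055866.10) lies at chr1:91343700-91387069 and *Per3* (ENSMUSG00000028957.13) at chr4:151081373-151129140. The cryptochrome genes lie at chr10:84967560-85021252 (*Cry1*, ENSMUSG00000020038.11) and chr2:92233894-92264474 (*Cry2*, ENSMUSG00000068742.12). *Nr1d2* (ENSMUSG00000021775.12) lies at chr14:4230545-4266624 and *Dbp* (ENSMUSG00000059824.13) at chr7:45354512-45359627. *Nfil3* (ENSMUSG00000056749.8) lies at chr13:53121245-53137010 and *Bhlhe40* (ENSMUSG00000030103.12) at chr6:108636626-108644502.

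Library totals ranged from 17127897 to 19057319 counts, and levels are given as CPM, the counts scaled to a common library size, after TMM scaling. To compare genes, CPM were divided by exon length in kilobases. On that scale the highest levels in WT cells with vehicle were those of *Dbp* at 16.2 ± 1.39 CPM per kb (SD, n = 3), *Nr1d2* at 15.7 ± 1.55 and *Nr1d1* at 15.1 ± 1.72, which did not differ beyond their spread. *Bhlhe40* followed at 11.9 ± 0.661 CPM per kb. *Cry2* at 6.23 ± 0.506 and *Cry1* at 6.20 ± 0.481 also did not differ beyond their spread, and were close to *Clock* at 6.07 CPM per kb. The period genes were lower, with *Per1* at 3.63 ± 0.348, *Per3* at 2.64 ± 0.046 and *Per2* at 1.11 ± 0.025 CPM per kb, and *Nfil3* stood between the last 2 at 1.54 ± 0.040.

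**Figure D1:**
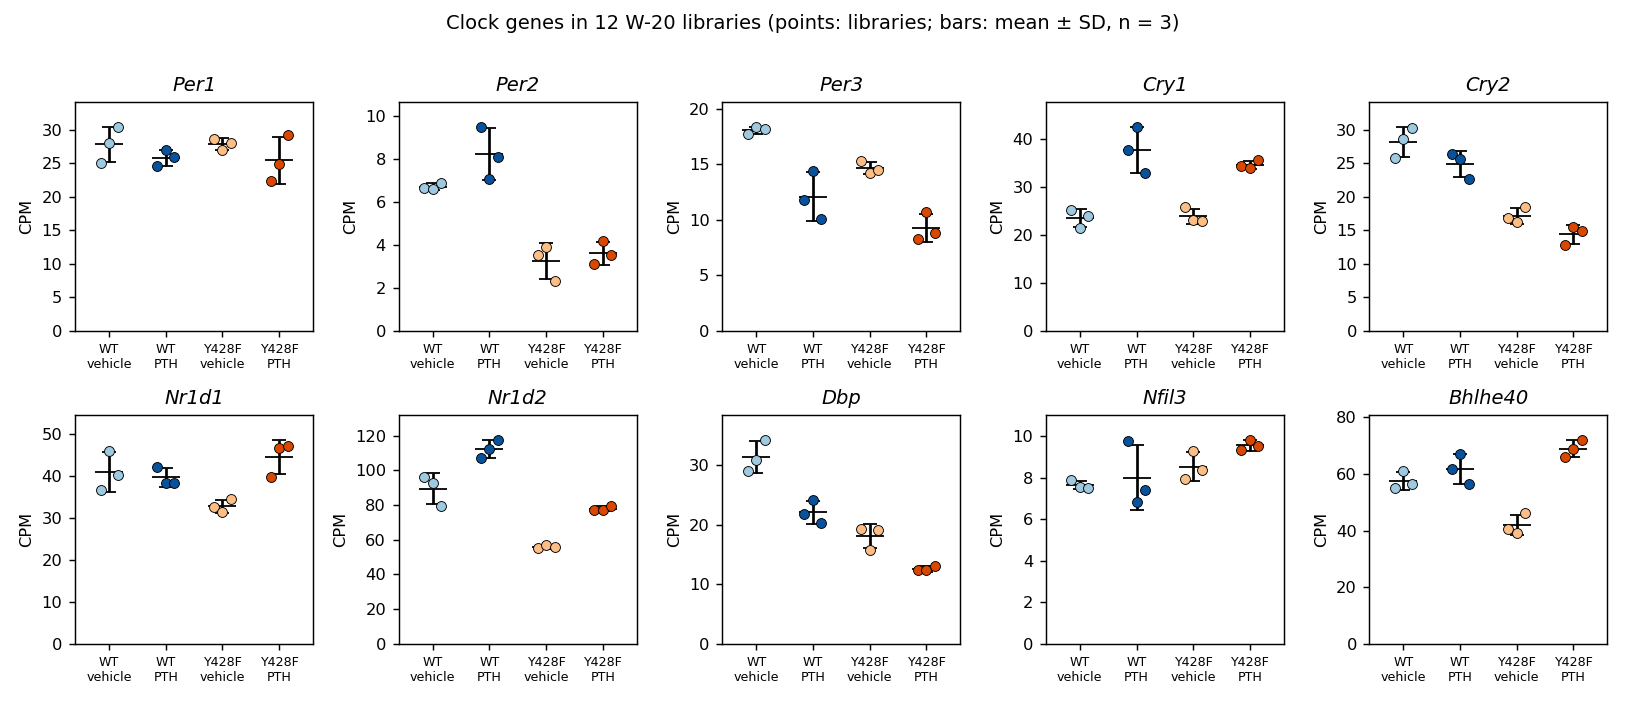
Level of each clock gene in CPM (vertical axes) in WT and Y428F cells with vehicle or PTH, with points for libraries and bars for mean ± SD (n = 3). *Cry1* was higher and *Per3* and *Dbp* were lower in every PTH library than in every vehicle library of the same line, and *Per1* libraries with PTH overlapped those with vehicle in each line.

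PTH moved 4 of the 10 clock genes in WT cells. *Cry1* and *Nr1d2* rose and *Per3* and *Dbp* fell, with adjusted p under 0.05 in edgeR's quasi-likelihood test over all genes tested. The background was 11.8% of 15583 genes called. The median log2 fold change of the 10 was 0.02, against -0.01 over all genes. In these bulk libraries, fewer expressing cells and less RNA per cell cannot be told apart.

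Among the period genes, which encode the repressors of CLOCK and BMAL1, *Per3* measured 17.7, 18.3 and 18.2 CPM with vehicle and 11.7, 14.4 and 10.0 CPM with PTH. The PTH libraries were all lower than the vehicle libraries, with a log2 fold change of -0.58 (SE 0.116, adjusted p = 0.00536). *Per1* measured 25.0, 28.0 and 30.3 CPM with vehicle and 24.5, 26.9 and 25.9 CPM with PTH. These ranges overlapped, and the log2 fold change of -0.10 had a 95% interval of -0.29 to 0.08 (adjusted p = 0.533). *Per2*, a period gene with the lowest level per length of the 10, averaged 6.69 ± 0.153 CPM without PTH and 8.22 ± 1.21 CPM under PTH. The log2 change of 0.30 did not pass the test (adjusted p = 0.191).

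The cryptochromes, which bind the period proteins and repress CLOCK and BMAL1, gave unlike values. *Cry1* measured 25.1, 21.5 and 23.9 CPM with vehicle and 37.7, 42.6 and 33.0 CPM with PTH. All 3 PTH libraries exceeded all 3 vehicle libraries, and the fitted rise between the groups was 1.61-fold (log2 0.69, SE 0.0988, adjusted p = 0.000554). *Cry2* averaged 28.2 ± 2.29 CPM in vehicle libraries and 24.9 ± 1.97 CPM under PTH, with a log2 fold change of -0.17 that did not pass the test (adjusted p = 0.243).

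Of the REV-ERB genes, *Nr1d2* measured 96.2, 92.6 and 79.5 CPM with vehicle and 107, 112 and 118 CPM with PTH. The libraries did not overlap, and *Nr1d2* rose by a log2 fold change of 0.34 (SE 0.077, adjusted p = 0.0125), a call that was lost without the third vehicle library (log2 0.26, adjusted p = 0.065). *Nr1d1* measured 36.6, 45.9 and 40.3 CPM with vehicle and 42.3, 38.4 and 38.4 CPM with PTH, which overlapped (log2 -0.04, adjusted p = 0.856). *Dbp*, a D-box activator, measured 29.0, 30.9 and 34.3 CPM with vehicle. It measured 21.9, 24.2 and 20.3 CPM with PTH, all lower, and fell by 0.50 on the log2 scale (SE 0.0897, adjusted p = 0.00282). The D-box repressor *Nfil3* stood at 7.65 ± 0.199 and 8.00 ± 1.57 CPM (adjusted p = 0.827), and the E-box repressor *Bhlhe40* at 57.5 ± 3.18 and 61.9 ± 5.32 CPM (adjusted p = 0.426).

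**Figure D2:**
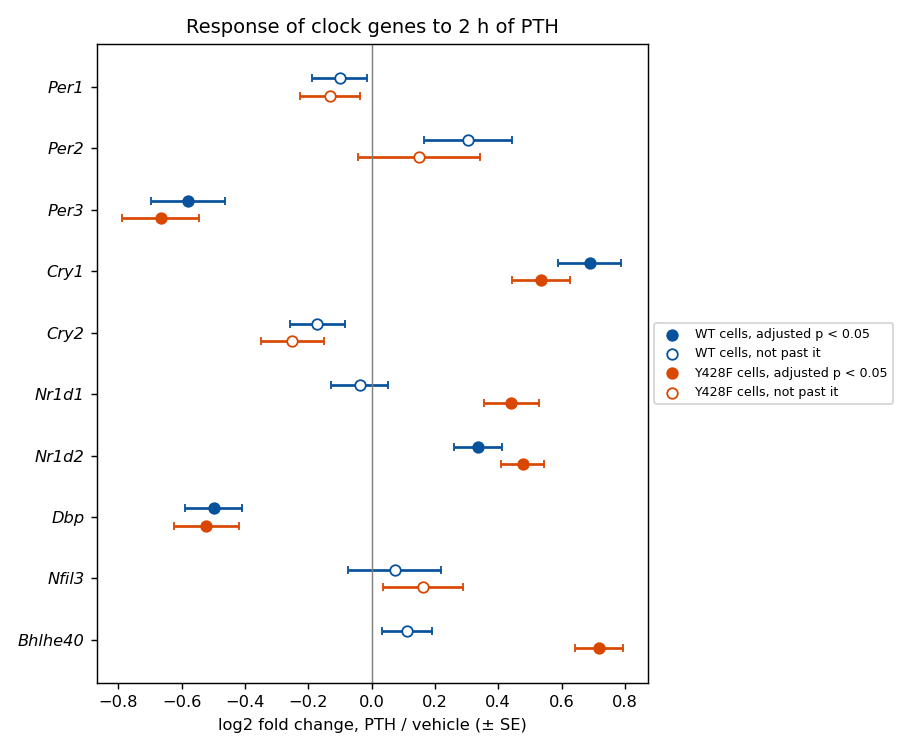
Log2 fold change of PTH over vehicle ± SE (horizontal axis) for each clock gene in WT and Y428F cells, with filled points for adjusted p under 0.05. *Per3*, *Cry1*, *Nr1d2* and *Dbp* passed in both lines, and *Nr1d1* and *Bhlhe40* in Y428F cells, where the difference between lines passed for *Bhlhe40* only.

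In Y428F cells, PTH moved 6 of the 10 clock genes, against a background of 12.4% of 17691 genes called. *Cry1*, *Nr1d2*, *Nr1d1* and *Bhlhe40* rose, and *Per3* and *Dbp* fell. The 4 genes called in WT cells were called here too, each in the same direction. The median log2 fold change of the 10 was 0.16, against -0.01 over all genes.

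*Bhlhe40* measured 40.6, 39.1 and 46.1 CPM with vehicle and 65.9, 68.9 and 72.1 CPM with PTH in Y428F cells. The groups stood well apart, and the rise was 1.65-fold (log2 0.72, SE 0.0747, adjusted p = 1.65e-06). *Nr1d1* measured 32.5, 31.5 and 34.5 CPM with vehicle and 39.8, 46.7 and 47.2 CPM with PTH, again without overlap (log2 0.44, SE 0.0863, adjusted p = 0.00162). The other REV-ERB gene, *Nr1d2*, measured 55.0, 57.1 and 56.0 CPM with vehicle and 77.4, 77.1 and 79.5 CPM with PTH (log2 0.48, SE 0.0669, adjusted p = 5.69e-05). Both REV-ERB genes were thus higher in every PTH library of this line.

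*Cry1* measured 25.7, 23.0 and 22.9 CPM with vehicle and 34.3, 33.8 and 35.6 CPM with PTH (log2 0.54, SE 0.0912, adjusted p = 0.000455). *Per3* measured 15.3, 14.2 and 14.5 CPM with vehicle and 8.26, 10.7 and 8.76 CPM with PTH, with all PTH libraries lower (log2 -0.67, SE 0.121, adjusted p = 0.000865). *Dbp* measured 19.3, 15.8 and 19.2 CPM with vehicle and 12.3, 12.3 and 13.1 CPM with PTH (log2 -0.52, SE 0.103, adjusted p = 0.00177). For none of these 3 genes did a PTH library overlap a vehicle library. *Per1* measured 27.8 ± 0.834 and 25.4 ± 3.49 CPM, with a 95% interval of -0.33 to 0.07 for its log2 fold change (adjusted p = 0.451). *Per2*, *Cry2* and *Nfil3* did not pass the test either, with adjusted p of 0.715, 0.120 and 0.486.

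A difference between the lines in their response to PTH was tested by the interaction of line and treatment, which called 0.413% of 17691 genes. Of the clock genes only *Bhlhe40* passed. Its response was larger in Y428F cells by 0.61 on the log2 scale (95% interval 0.39 to 0.83, adjusted p = 0.00997). *Nr1d1* had a difference of 0.49 (95% interval 0.23 to 0.74) that did not pass (adjusted p = 0.119), with adjusted p between 0.00458 and 0.352 over the alternative settings. It passed without the first WT library with vehicle (adjusted p = 0.0385) and without the first Y428F library with PTH (adjusted p = 0.049). For the genes called in both lines the difference was -0.15 for *Cry1* (95% interval -0.42 to 0.12) and -0.08 for *Per3* (-0.43 to 0.27). It was -0.02 for *Dbp* (-0.31 to 0.28) and 0.15 for *Nr1d2* (-0.05 to 0.34). These intervals bound the differences and do not show that the responses were equal.

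Scaling by library totals instead of TMM changed the share of higher genes among all genes called for PTH from 58.4% to 38.0% in WT cells and from 53.4% to 38.1% in Y428F cells. The PTH calls of the clock genes were the same under both scalings. *Nr1d1* and *Dbp* have 2721 and 1940 exon bases over transcripts of the basic annotation. Over all annotated exons, *Nr1d1* shares 1694 bases with *Thra*, which encodes a thyroid hormone receptor on the opposite strand. *Dbp* shares 539 bases with *Sphk2*, which encodes a sphingosine kinase, also on the opposite strand. The strand setting of the counting is not given in the sources used here, so reads of these pairs may not have been separated. *Thra* had a log2 fold change under PTH of -0.07 in the WT line and -0.13 in the Y428F line, neither passing the test. The part of *Thra* in the PTH response of *Nr1d1* was not tested. *Sphk2* fell with PTH in both lines (log2 -0.45, adjusted p = 0.00259, and -0.50, adjusted p = 0.000357), as *Dbp* did, and its part in the values of *Dbp* was not tested.

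Without PTH, 7 of the 10 clock genes had lower levels in Y428F cells than in WT cells and 0 had higher ones. The background was 45.1% of 17691 genes called in either direction, 3966 as higher and 4020 as lower. The median log2 difference of the 10 was -0.39, against 0.01 over all genes. Among genes averaging at least 4 CPM, the median differed between the chromosomes that hold the clock genes. It ranged from -0.16 on chromosome 6, which holds *Bhlhe40*, to 0.25 on chromosome 10, which holds *Cry1*. The part of these chromosome medians in the clock gene values was not tested. *Per2* measured 6.61, 6.60 and 6.87 CPM in WT cells and 3.50, 3.89 and 2.29 CPM in Y428F cells. The lines did not overlap (log2 -1.05, SE 0.178, adjusted p = 5.62e-05). *Dbp* averaged 31.4 ± 2.69 CPM in WT cells and 18.1 ± 1.98 CPM in the mutant line (log2 -0.79, adjusted p = 7.17e-07), and *Sphk2* was lower as well (log2 -0.42, adjusted p = 0.000137).

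*Cry2* measured 25.7, 28.6 and 30.2 CPM in WT cells and 16.8, 16.2 and 18.5 CPM in Y428F cells (log2 -0.72, SE 0.0955, adjusted p = 2.68e-06). *Cry1*, in contrast, was at 23.5 ± 1.83 and 23.9 ± 1.59 CPM, a log2 difference of 0.02 (adjusted p = 0.884). Of the cryptochromes, *Cry2* alone passed the test between the lines with vehicle. *Nr1d2* was lower by a log2 difference of -0.67 (adjusted p = 4.08e-08), *Bhlhe40* by -0.46 (adjusted p = 3.72e-05) and *Nr1d1* by -0.32 (adjusted p = 0.00467). *Thra*, which overlaps *Nr1d1*, had a log2 difference of -0.83 (adjusted p = 1.03e-10), and its part in the value of *Nr1d1* was not tested. *Per3* was lower by -0.30 (adjusted p = 0.0349), a call lost with DESeq2 (adjusted p = 0.0597) and with library totals (adjusted p = 0.0766). It was also lost without WT replicate 2 or 3 (adjusted p = 0.0662 and 0.0771) and without Y428F replicate 2 or 3 (adjusted p = 0.0932 and 0.0762). *Per1* had a difference of 0.00 (adjusted p = 0.992) and *Nfil3* of 0.16 (adjusted p = 0.344).

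**Figure D3:**
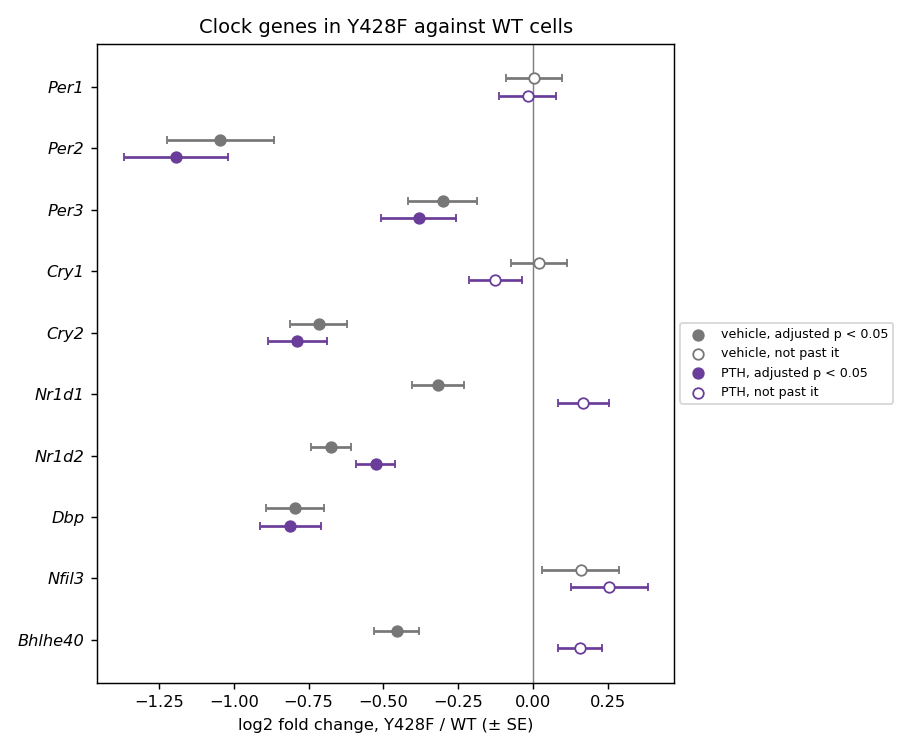
Log2 fold change of Y428F over WT cells ± SE (horizontal axis) for each clock gene with vehicle and with PTH, with filled points for adjusted p under 0.05. *Per2*, *Per3*, *Cry2*, *Nr1d2* and *Dbp* lay below 0 in both, whereas *Nr1d1* and *Bhlhe40* passed the test with vehicle only.

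With PTH in both lines, 5 of the 10 clock genes were lower in Y428F cells and 0 were higher. Over all genes, 45.7% of 17691 were called, 4026 as higher and 4067 as lower. The number of clock genes called was thus near that background. All 5 clock genes were also lower with vehicle. They were *Per2* (log2 -1.19, adjusted p = 8.96e-06), *Dbp* (-0.81, adjusted p = 1.29e-06), *Cry2* (-0.79, adjusted p = 1.14e-06), *Nr1d2* (-0.53, adjusted p = 9.71e-07) and *Per3* (-0.38, adjusted p = 0.016). The *Per3* libraries overlapped, and that call was lost without the second WT library with PTH (log2 -0.23, adjusted p = 0.150) and without the first Y428F library with PTH (adjusted p = 0.0612). *Bhlhe40* measured 61.9, 67.2 and 56.5 CPM in WT cells and 65.9, 68.9 and 72.1 CPM in Y428F cells, which overlapped (log2 0.16, adjusted p = 0.0876). *Nr1d1* was likewise not called (log2 0.17, adjusted p = 0.122). With library totals, *Bhlhe40*, *Nr1d1* and *Nfil3* passed as higher in Y428F cells. *Bhlhe40* also passed without the second WT library (adjusted p = 0.0237), *Nfil3* without the first WT library (adjusted p = 0.00895) and *Nr1d1* without the first Y428F library (adjusted p = 0.0389).

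Marker genes were read in the same libraries. The stromal markers *Col1a1*, *Col1a2* and *Vim* were abundant, whereas *Thy1* was at 0 counts in all libraries. The 10 stromal markers summed to between 25581 and 29370 CPM in WT libraries and between 15733 and 19752 CPM in Y428F libraries. Of the osteoblast markers, *Runx2* was present and *Sp7*, *Alpl*, *Bglap* and *Ibsp* had 0 to 7 counts. The 5 haematopoietic markers summed to at most 1.81 CPM in WT and 5.29 CPM in Y428F libraries, with *Adgre1* at 0 or 1 counts, and the 4 endothelial markers to at most 1.77 and 9.94 CPM. The adipocyte factor *Cebpa* averaged 46.1 CPM in vehicle libraries of WT cells and 9.76 CPM in those of Y428F cells, with *Adipoq* at 0. The 4 epithelial markers summed to at most 0.967 and 4.79 CPM, with *Epcam* at 0. The stromal markers did not all differ in the same direction, since with vehicle *Ly6a* averaged 138 ± 10.7 CPM in WT libraries and 324 ± 1.42 CPM in Y428F libraries. The part of these marker levels in the clock gene differences between the lines was not tested.

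Of 23 other clock genes, PTH raised 2 and lowered 3 among 20 tested in WT cells, and raised 2 and lowered 1 among 21 tested in Y428F cells. Over all genes tested, 11.8% were called in WT cells and 12.4% in Y428F cells, and the 3 of 21 in Y428F cells were near that background. *Clock*, the E-box activator, rose from 80.5 ± 3.87 to 99.1 ± 6.16 CPM in WT cells (log2 0.31, adjusted p = 0.00995). It rose from 97.9 ± 4.62 to 118 ± 3.08 CPM in Y428F cells (log2 0.27, adjusted p = 0.00416). Its partner *Bmal1*, a known target of the REV-ERB repressors, had log2 fold changes of -0.09 (adjusted p = 0.727) and -0.17 (adjusted p = 0.446). Of the related activators, *Bmal2* was not called (adjusted p = 0.318 and 0.596) and *Npas2* had 0 to 3 counts.

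*Timeless*, a replication fork and checkpoint factor also linked to the period complex, fell in both lines (log2 -0.47, adjusted p = 0.00233, and -0.38, adjusted p = 0.00178). Among the ROR activators, *Rora* fell in WT cells from 33.8 ± 2.73 to 27.6 ± 1.29 CPM (log2 -0.29, adjusted p = 0.0376). It was at 6.50 ± 0.206 and 7.02 ± 1.28 CPM in Y428F cells (adjusted p = 0.673), and its difference in response of 0.41 did not pass the test (adjusted p = 0.578). *Rorb* fell in WT cells from 15.1 ± 1.14 to 10.2 ± 0.769 CPM (log2 -0.56, adjusted p = 0.00346) and was at 18.4 ± 0.683 and 21.2 ± 1.66 CPM in Y428F cells (log2 0.21, adjusted p = 0.161). For *Rorb* the difference in response passed the test, at 0.77 (adjusted p = 0.0106). Between the lines with vehicle, 7 of 21 other clock genes tested were higher in Y428F cells and 4 were lower, a number called near the background of 45.1%. *Rora* was lower (log2 -2.38, adjusted p = 4.54e-13), whereas *Timeless* (log2 0.98, adjusted p = 1.92e-09), *Clock* (log2 0.28, adjusted p = 0.000608) and *Rorb* (log2 0.28, adjusted p = 0.0177) were higher.

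**Figure D4:**
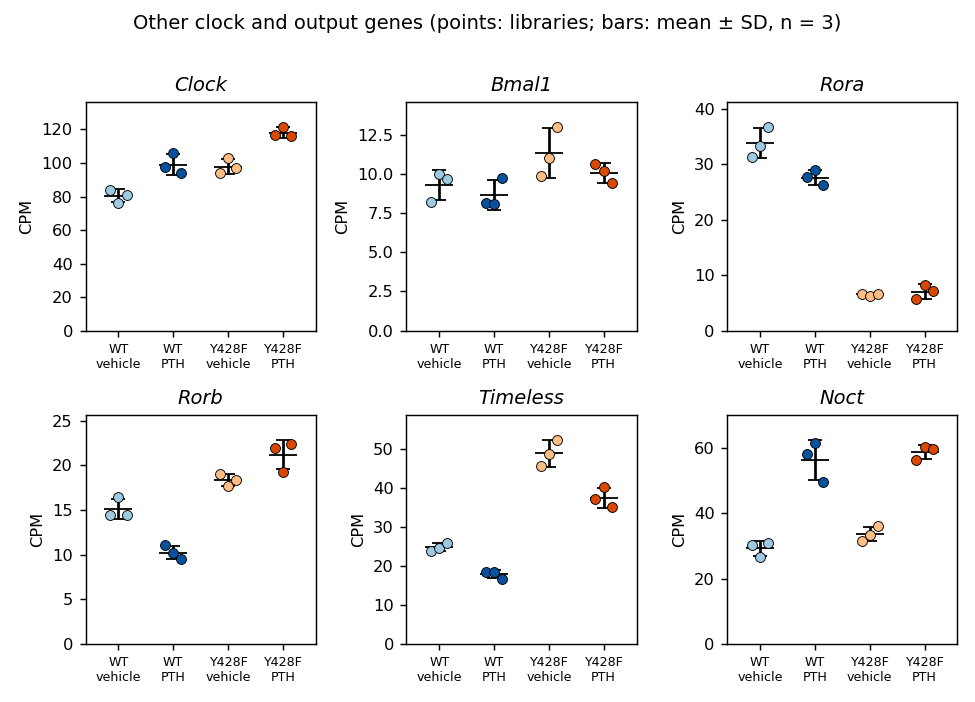
Level in CPM (vertical axes) of 5 other clock genes and the output gene *Noct* in the 4 groups, with points for libraries and bars for mean ± SD (n = 3). *Clock* and *Noct* were higher and *Timeless* was lower with PTH in both lines, and with vehicle *Rora* was lower and *Timeless*, *Clock* and *Rorb* were higher in Y428F cells.

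Of 7 clock output genes, PTH raised 1 and lowered 1 in WT cells, and raised 3 and lowered 1 in Y428F cells, beside the backgrounds of 11.8% and 12.4% of all genes. *Noct*, a rhythmic gene that encodes a phosphatase of nicotinamide cofactors, rose from 29.3 ± 2.29 to 56.4 ± 6.12 CPM in WT cells (log2 0.95, SE 0.0929, adjusted p = 2.13e-05). It rose from 33.6 ± 2.21 to 58.8 ± 2.24 CPM in Y428F cells (log2 0.81, adjusted p = 1.21e-06). *Cdkn1a*, an inhibitor of the cell cycle, fell in WT cells (log2 -0.66, adjusted p = 0.0115). In Y428F cells, *Nampt*, an enzyme of NAD synthesis, rose (log2 0.26, adjusted p = 0.00714), as did the transcription factor gene *Klf10* (log2 0.29, adjusted p = 0.0333), and the glucocorticoid-responsive *Tsc22d3* fell (log2 -0.28, adjusted p = 0.0231). The line in which each of these 4 genes missed the threshold gave log2 values of the same sign, at -0.42 for *Cdkn1a* in Y428F cells, and in WT cells 0.14 for *Nampt*, 0.26 for *Klf10* and -0.20 for *Tsc22d3*. Their difference in response did not pass the test (adjusted p between 0.834 and 0.988).

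Of 8 acute input genes, which link cAMP and other signals to the clock, PTH raised 1 in WT cells, and raised 1 and lowered 1 in Y428F cells. The 1 of 8 in WT cells was near the 11.8% called over all genes, and the background in Y428F cells was 12.4%. *Dusp1*, a phosphatase of MAP kinases, rose from 88.6 ± 5.01 to 104 ± 3.29 CPM in WT cells (log2 0.24, adjusted p = 0.0281). In Y428F cells it rose from 50.4 ± 1.46 to 72.3 ± 5.63 CPM (log2 0.52, adjusted p = 1.58e-05). The difference in response of *Dusp1*, at 0.29, did not pass the test (adjusted p = 0.346). *Sik1*, a kinase that restrains CREB coactivators, fell in Y428F cells (log2 -0.35, adjusted p = 0.0131) and was not called in WT cells (log2 -0.22, adjusted p = 0.129), a difference in response that did not pass the test (adjusted p = 0.902). The immediate early gene *Fos* and the cAMP-responsive *Crem* were not called in either line, with adjusted p between 0.768 and 0.883.

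Ratios between partner genes, chosen after their values were seen, were taken within each library from CPM per kb and are given with no test. The ratio of *Cry1* to *Cry2* was 1.00 ± 0.142 in WT cells with vehicle and 1.81 ± 0.150 with PTH. In Y428F cells it was between 1.48 and 1.82 with vehicle and 2.88 ± 0.294 with PTH. Each PTH library lay above each vehicle library of its line. The ratio of *Dbp* to *Nfil3*, a D-box activator to a D-box repressor, was 10.5 ± 1.13 in WT cells with vehicle and 7.25 ± 1.68 with PTH. It was 5.47 ± 0.994 and 3.37 ± 0.151 in Y428F cells. The ratio of *Nr1d2* to *Rora* was 5.33 ± 0.926 and 8.16 ± 0.689 in WT cells and 17.2 ± 0.841 and 22.7 ± 4.31 in Y428F cells.

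**Figure D5:**
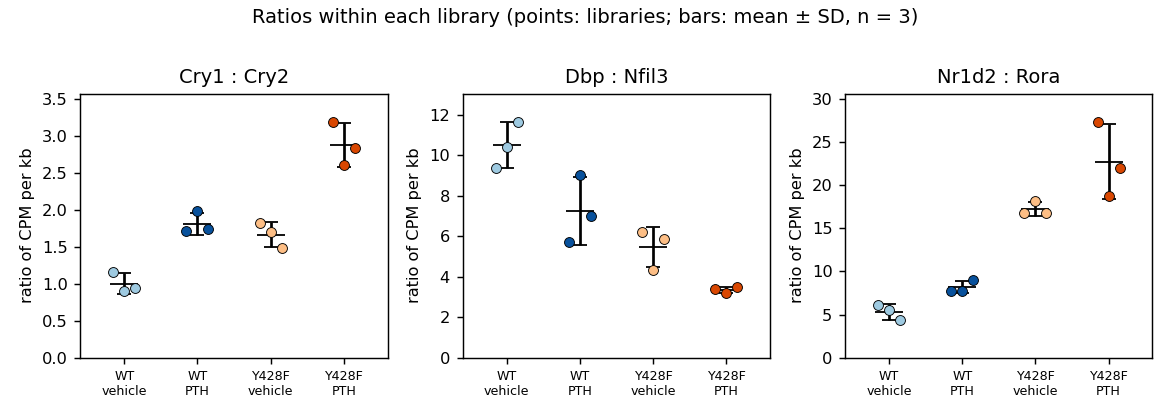
Ratios of CPM per kb within each library (vertical axes) for *Cry1* to *Cry2*, *Dbp* to *Nfil3* and *Nr1d2* to *Rora* in the 4 groups, with points for libraries and bars for mean ± SD (n = 3). In both lines the first and last ratios were higher and the second was lower in every PTH library than in every vehicle library.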

How the data were processed

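Per the labels and the study's methods, the authors aligned reads with STAR 2.7.10b to GRCm39 with the GENCODE basic vM31 annotation and deposited RSEM expected counts per gene. They then used DESeq2. Here the expected counts were rounded and tested with edgeR 4.0.16 in R 4.3.3 (TMM, a minimum of 10 counts per gene over the libraries fitted, quasi-likelihood test, Benjamini-Hochberg adjustment over all genes tested, limit 0.05). PTH in WT cells was fitted on 6 libraries and the other comparisons on 12. SE was the log2 fold change divided by the square root of F. Genes matched GENCODE vM39 for 56236 identifiers, and 744 were not matched. The 10 clock genes and the other lists were chosen with earlier results of these data known. From the other lists, genes called in a PTH comparison or in the difference in response were named, with the 4 activators, except for a result that is not reported here. *Thra* and *Sphk2* and the ratios were chosen after their values were seen. Alternatives were DESeq2 1.42.0, other scalings and filters, a stricter limit, a replicate block, each library left out, and a gene length correction (lowess span 0.3), which was added after the data were seen. The fits were tested on simulated data. No pair of libraries of the same group agreed within sampling noise.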

Additional observations from a re-analysis of the deposited data

Results flagged for a closer look

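The response to PTH differed between the lines by the interaction test in edgeR for *Bhlhe40* and for *Rorb*. For *Bhlhe40*, the log2 response was 0.11 in WT cells and 0.72 in Y428F cells, and the difference of 0.61 had adjusted p between 1.39e-06 and 0.0448 over the alternative settings. For *Rorb*, the log2 response was -0.56 in WT cells and 0.21 in Y428F cells, a difference of 0.77 (adjusted p = 0.0106).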

How the results depend on the processing

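Over 960 recomputed values of the clock genes, 911 kept their direction and their side of the threshold, and of 446 that were called, 434 kept the call and 0 changed sign. The cause of the following changes was not tested. With limits of 0.01 on the adjusted p and 0.3 on the log2 fold change, the genes called numbered 821 for PTH in WT cells (1 clock gene higher), 942 in Y428F cells and 22 for the difference in response. For that difference DESeq2 called 124 genes and no filter on low counts called 216, each with 2 clock genes higher, where *Nr1d1* joined *Bhlhe40*. Between the lines with PTH, the clock genes called higher numbered 3 with library totals, 1 with at least 10 counts in every library and 1 with the gene length correction, and the log2 difference of *Per1* turned to 0.0482 with library totals and 0.0304 with the length correction. Leaving out each library in turn gave 905 to 2211 genes called for PTH in WT cells (1 to 2 clock genes higher), 1435 to 2515 in Y428F cells and 24 to 89 for the difference (1 to 2 clock genes higher), and 0 to 1 clock genes higher between the lines with PTH. The lowest of these counts of genes were without the first WT library with PTH, the first Y428F library with vehicle and the third Y428F library with PTH, in that order. Under the same omissions some uncalled log2 values changed sign. In the WT response to PTH these were *Nfil3* (-0.085 to 0.18) and *Nr1d1* (-0.10 to 0.0562), and in Y428F cells *Per2* (-0.0414 to 0.31). Between the lines they were *Cry1* (-0.0442 to 0.0674) and *Per1* (-0.0701 to 0.0734) with vehicle, and *Per1* (-0.14 to 0.0564) with PTH. For the difference they were *Cry2* (-0.13 to 0.0004), *Dbp* (-0.12 to 0.0591), *Per1* (-0.14 to 0.058), *Per2* (-0.35 to 0.0016) and *Per3* (-0.20 to 0.0724). Libraries of the same number did not deviate together (mean correlation 0.0064 over 18 pairs), and the replicate block changed 0 calls of the clock genes, with 1643 genes called for PTH in WT libraries and 2273 in Y428F libraries.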

Other observations

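Outside the genes named by rule, 1 further clock gene that differed between the lines was picked after its values were seen. *Bhlhe41*, the paralog of *Bhlhe40*, averaged 32.6 ± 3.19 CPM in vehicle-treated WT cells and 11.2 ± 2.52 CPM in vehicle-treated Y428F cells (SD, n = 3, log2 -1.54, adjusted p = 2.63e-09 in edgeR).

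The genes whose log2 CPM followed a clock gene most closely over the 12 libraries were ranked among the 10139 genes that averaged 5 CPM or more, as a description in which the 4 groups set much of the order. For *Bhlhe40* they were *Usp6nl* (Pearson r 0.92), *Zzz3* (0.901), *Smcr8* (0.897), *Stx3* (0.896) and *Sbds* (0.892). For *Nr1d1* they were *Zfp592* (0.861), *Rara* (0.845), *Mafg* (0.831), *Zzz3* (0.829) and *Kansl1* (0.823). For *Per1* they were *Igip* (0.885), *Trappc14* (0.867), *Ubr1* (0.866), *Clu* (0.855) and *Ap2a1* (0.849).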
